A study of Homo sapiens with 9 samples.

Results

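The genes described here are 9 genes of HLA class I antigen presentation: the heavy chain genes HLA-B, HLA-C, HLA-E, HLA-F and HLA-G, the light chain gene B2M, the peptide transporter genes TAP1 and TAP2, and the immunoproteasome gene PSMB8. They are 9 of 19775 genes that the array read with a probe set carrying a single gene symbol. They were chosen by name, with earlier results of these data known. Every probe set that carried only a member's symbol was taken, which gave 26 of 41091 such probe sets. The probe set whose mean over all 9 arrays was highest served as a gene's main value. The platform was the Affymetrix HG-U133 Plus 2 array, and each value is a log2 level. On GRCh38.p14, HLA-F, HLA-G, HLA-E, HLA-C, HLA-B, TAP2, PSMB8 and TAP1 lie in this order on chromosome 6, between 29723434 and 32853704, and B2M lies on chromosome 15, from 44711517 to 44718145.

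All samples were TC-71, an established human Ewing sarcoma cell line, or lines derived from it. The parental TC-71 cells were the unselected group and had 3 biological replicates with 1 array each. TC/AEW is a line made resistant to NVP-AEW541, which blocks the kinase of the insulin-like growth factor 1 receptor (IGF-1R), by exposure to as much as 5 µM. TC/AVE was made resistant to AVE1642, an antibody against that receptor, by exposure to as much as 10 µg/ml. TC/CP was made resistant to figitumumab, another antibody against it, with the highest concentration not given in the sources used here. Selection took 6 months in each case, in Iscove medium with 10% serum. Each resistant line is a single selected line with 2 technical arrays, which were averaged into 1 sample. The labels name no TC-71 culture passaged alongside, so resistance to an agent and drift of 1 culture cannot be told apart.

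Class I molecules display peptides from inside the cell to cytotoxic T cells. Proteasomes cut proteins into peptides, with PSMB8 replacing a constitutive subunit in the immunoproteasome. The TAP1 and TAP2 proteins together carry peptides into the endoplasmic reticulum. There the peptide joins a heavy chain and beta-2-microglobulin, the product of B2M, and the complex moves to the surface. HLA-B and HLA-C are classical, highly polymorphic heavy chains. HLA-E presents mainly leader peptides of other class I chains to receptors of natural killer cells, and HLA-F and HLA-G are nonclassical chains with narrower roles. Interferons raise the genes of this pathway in many cell types, and Ewing sarcomas often show little class I on their surface.

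The arrays were alike in overall distribution, with medians from 5.39 to 5.45. Of 10 fixed Ewing sarcoma markers, 9 were on the array and all 9 were at 5 or above on every array. Their mean level ran from 10.3 to 10.6 in TC-71 and from 10.2 to 10.4 in the resistant lines. LIPI, a marker of that list, was below all TC-71 arrays in each line, at 7.01 in TC-71 against 5.82 in TC/AEW, 5.23 in TC/AVE and 5.33 in TC/CP (adjusted p of 0.203 in the lines in common). Of 14 leukocyte and blood markers, 11 were on the array and 5 of these, the leukocyte antigen PTPRC among them, stayed under 5 on every array. Another 3, CD79A, HBB and ITGAM, were at 5 or above on every array, with means of 6.53, 5.91 and 5.57 in TC-71. The mean level of those 11 ran from 4.78 to 5.04 in TC-71 and from 4.84 to 4.97 in the resistant lines. The 5 endothelial markers had a mean level from 5.13 to 5.36 in TC-71 and from 5.33 to 5.49 in the lines. CDH5 was under 5 throughout, and 2 of the 5, PECAM1 and CLDN5, were at 5 or above on every array. PECAM1 was at 6.14 in TC-71, 6.32 in TC/AEW, 6.27 in TC/AVE and 6.24 in TC/CP. CLDN5, a tight junction gene of that list, was at 6.39 in TC-71 and above all TC-71 arrays in each line, at 6.97 in TC/AEW, 7.25 in TC/AVE and 7.12 in TC/CP (adjusted p of 0.234 in the lines in common), and its part in the results was not tested. A level under 5 is taken as near background here. The names of the arrays put TC-71 sample 2 in a set with TC/AEW and TC/AVE and TC-71 sample 3 in a set with TC/CP, while TC-71 sample 1 stood alone.

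The class I genes were higher in TC/AEW and TC/AVE than in TC-71, and TC/CP lay near TC-71 for most of them. In TC/AEW, 8 of 9 members had both arrays above all 3 TC-71 arrays, against 15.5% of the 14181 genes tested. In TC/AVE it was again 8 of 9, against 19.6% of genes. In TC/CP it was 2 of 9, HLA-C and B2M, against 21.2%. The median difference of the members was 0.90 in TC/AEW, 0.68 in TC/AVE and 0.11 in TC/CP, beside medians of 0.00, -0.02 and 0.00 over all genes. The largest differences were those of HLA-C and HLA-B in TC/AEW, at 3.25-fold and 2.79-fold, and that of TAP1 in TC/AVE, at 2.24-fold. No member passed an adjusted p of 0.05 in any comparison in limma, so none of these differences is called a change. The 3 comparisons share the TC-71 samples. Since the members were chosen with earlier results of these data known, their counts beside the shares of all genes are descriptive only. Each array read RNA of many cells, so more cells with an RNA and more RNA per cell cannot be told apart.

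**Figure D1:**
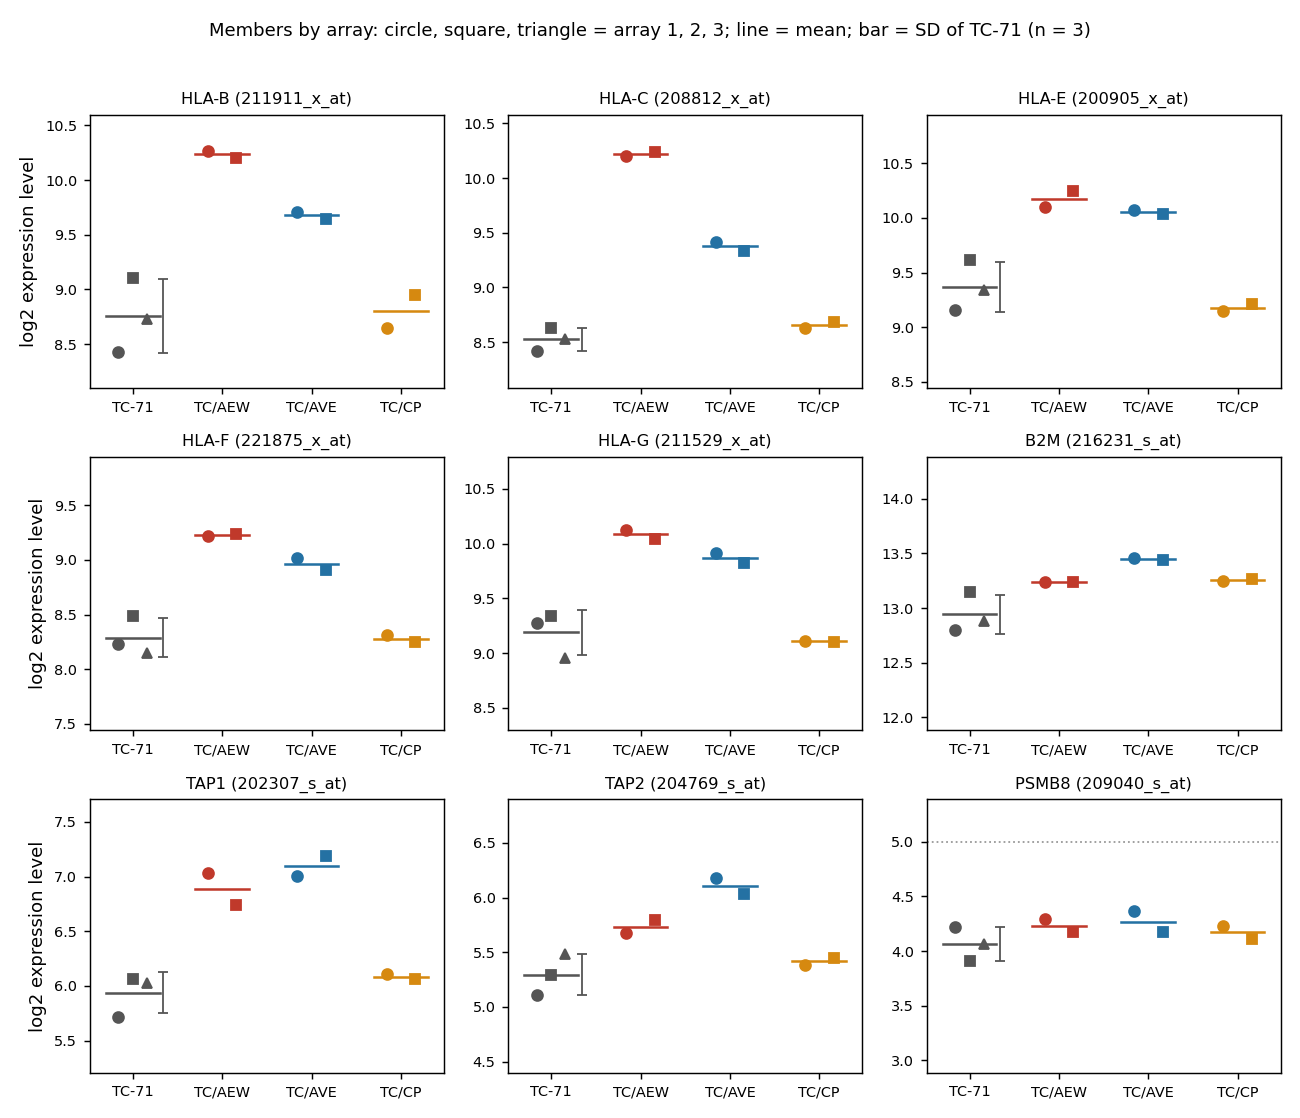
Log2 level of each of the 9 genes, 1 panel per gene, each panel spanning the same range of log2 units. Points are arrays by group, the line is the group mean and the bar is the SD of TC-71 (n = 3). For the 5 HLA heavy chain genes, TAP1 and TAP2, the TC/AEW and TC/AVE points lie above every TC-71 point, and PSMB8 stays under 5 (dotted line).

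HLA-B was read by a probe set at 8.43, 9.10 and 8.73 in TC-71 samples 1, 2 and 3. It was at 10.27 and 10.20 on the TC/AEW arrays, 9.71 and 9.64 on the TC/AVE arrays, and 8.65 and 8.95 on the TC/CP arrays. TC/AEW and TC/AVE lay above all TC-71 samples and TC/CP lay within their range. The difference from TC-71 was 1.48 ± 0.32 (SE) in TC/AEW, with an unadjusted p of 0.00549 and an adjusted p of 0.985 in limma. It was 0.92 ± 0.32 in TC/AVE, with an adjusted p of 0.637, and 0.04 ± 0.32 in TC/CP.

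HLA-C had the largest difference and the least spread in TC-71 among the tested members, at 8.42, 8.63 and 8.53 in samples 1, 2 and 3 (mean 8.53 ± 0.11, SD, n = 3). It stood at 10.21 and 10.24 in TC/AEW, at 9.42 and 9.34 in TC/AVE, and at 8.63 and 8.68 in TC/CP. Both arrays of each line lay above every TC-71 sample, in TC/CP by less than the spread of TC-71. The difference was 1.70 ± 0.22 in TC/AEW, with an unadjusted p of 5.2e-04 and an adjusted p of 0.672. It was 0.85 ± 0.22 in TC/AVE, with an adjusted p of 0.532, and 0.13 ± 0.22 in TC/CP, with an adjusted p of 0.998.

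HLA-E, the heavy chain that presents leader peptides, was at 9.16, 9.61 and 9.34 in TC-71, 10.10 and 10.24 in TC/AEW, 10.07 and 10.03 in TC/AVE, and 9.15 and 9.21 in TC/CP. TC/AEW and TC/AVE were both above TC-71 and overlapped no TC-71 sample, whereas TC/CP lay at the low end of it. The difference was 0.80 ± 0.26 in TC/AEW, 0.68 ± 0.26 in TC/AVE and -0.19 ± 0.26 in TC/CP.

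HLA-F followed the same order, at 8.24, 8.49 and 8.15 in TC-71, 9.22 and 9.23 in TC/AEW, 9.02 and 8.91 in TC/AVE, and 8.32 and 8.25 in TC/CP. HLA-G was at 9.28, 9.34 and 8.96 in TC-71, 10.13 and 10.05 in TC/AEW, 9.91 and 9.82 in TC/AVE, and 9.11 and 9.10 in TC/CP. For both genes TC/AEW and TC/AVE lay above all TC-71 arrays and TC/CP lay inside their range. HLA-F differed from TC-71 by 0.94 ± 0.24 in TC/AEW and 0.67 ± 0.24 in TC/AVE, and HLA-G by 0.90 ± 0.25 and 0.68 ± 0.25. In TC/CP the 2 genes differed by -0.01 and -0.08.

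The promoters of HLA-B, HLA-C and HLA-F are shown as the heavy chain windows that hold a searched motif other than CCAAT. Each is the 250 bases before the start site from RefSeq on GRCh38.p14. HLA-B lies at chr6:31357180-31357429, HLA-C at chr6:31272093-31272342, both on the minus strand, and HLA-F at chr6:29723184-29723433 on the plus strand. Capitals mark every match, on either strand, to the enhancer A letters GGGGATTCC, an ISRE-like (interferon-stimulated response element) motif GAAANNGAA, a GAS-like (gamma-activated site) motif TTCNNNGAA, a CRE (cAMP response element) core TGACG, or CCAAT.
HLA-B: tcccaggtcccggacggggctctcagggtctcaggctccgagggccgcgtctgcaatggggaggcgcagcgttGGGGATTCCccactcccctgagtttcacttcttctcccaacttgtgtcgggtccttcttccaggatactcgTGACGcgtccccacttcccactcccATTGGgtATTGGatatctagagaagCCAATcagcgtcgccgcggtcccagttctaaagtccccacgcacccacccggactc
HLA-C: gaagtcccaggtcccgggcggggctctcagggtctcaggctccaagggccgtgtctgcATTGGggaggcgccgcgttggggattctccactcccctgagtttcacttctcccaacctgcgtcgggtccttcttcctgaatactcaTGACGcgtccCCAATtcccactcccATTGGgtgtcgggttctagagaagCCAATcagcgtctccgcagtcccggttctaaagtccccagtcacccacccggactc
HLA-F: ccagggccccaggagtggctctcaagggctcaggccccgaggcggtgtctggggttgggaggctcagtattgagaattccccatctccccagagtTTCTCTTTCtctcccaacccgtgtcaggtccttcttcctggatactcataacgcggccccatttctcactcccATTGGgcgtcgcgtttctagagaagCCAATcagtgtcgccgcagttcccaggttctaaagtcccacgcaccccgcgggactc
HLA-B held the enhancer A letters from base -177 to -169, which 0.253% of 35116 promoter windows of this length held. HLA-B and HLA-C each held the CRE core, starting at base -106 and -105, which 21.2% of windows held. HLA-F held the ISRE-like letters from -155 to -147, found in 6.88% of windows. Each of the 3 held CCAAT, as did 32% of windows. HLA-G has 3 listed start sites, of which 2 windows held none of the motifs and 1 held only CCAAT. The HLA-B and HLA-C windows were identical at 226 of 254 aligned columns, or 89%, and HLA-B and HLA-F at 80.4%. These windows are reference sequence, and the alleles of TC-71 were not analysed here. A match is a description of letters, not a site.

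B2M, the light chain gene, was higher in TC/CP as well as in the other lines. It stood at 12.80, 13.14 and 12.88 in TC-71, 13.24 and 13.24 in TC/AEW, 13.46 and 13.44 in TC/AVE, and 13.25 and 13.27 in TC/CP. All 6 arrays of the resistant lines lay above all 3 TC-71 arrays, TC/CP included. The differences were 0.30 ± 0.24, 0.51 ± 0.24 and 0.32 ± 0.24, and none had an unadjusted p under 0.05 in its single-line comparison. In the lines in common the difference was 0.37 ± 0.14, with an unadjusted p of 0.0350 and an adjusted p of 0.564.

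TAP1, a chain of the transporter, was at 5.72, 6.07 and 6.03 in TC-71, 7.03 and 6.74 in TC/AEW, 7.01 and 7.19 in TC/AVE, and 6.11 and 6.06 in TC/CP. TAP2, its partner, was at 5.11, 5.29 and 5.49 in TC-71, 5.67 and 5.80 in TC/AEW, 6.18 and 6.03 in TC/AVE, and 5.39 and 5.45 in TC/CP. Both genes were above all TC-71 arrays in TC/AEW and TC/AVE, with the higher mean in TC/AVE, and overlapped TC-71 in TC/CP. TAP1 differed by 1.16 ± 0.24 in TC/AVE, with an unadjusted p of 0.00500 and an adjusted p of 0.454, the lowest of any member in a single line. It differed by 0.95 ± 0.24 in TC/AEW and by 0.15 in TC/CP. TAP2 differed by 0.44 ± 0.24 in TC/AEW, 0.81 ± 0.24 in TC/AVE and 0.12 ± 0.24 in TC/CP.

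The windows of B2M, TAP1 and TAP2 are shown because they hold the ISRE-like letters, as HLA-F does. B2M lies at chr15:44711267-44711516 on the plus strand, TAP1 at chr6:32853705-32853954 and TAP2 at chr6:32838740-32838989, both on the minus strand.
B2M: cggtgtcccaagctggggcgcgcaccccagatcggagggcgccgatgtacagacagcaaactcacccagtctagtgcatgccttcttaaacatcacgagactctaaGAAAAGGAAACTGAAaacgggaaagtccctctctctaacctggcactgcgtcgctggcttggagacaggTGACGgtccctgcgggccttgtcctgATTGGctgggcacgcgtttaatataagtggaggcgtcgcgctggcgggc
TAP1: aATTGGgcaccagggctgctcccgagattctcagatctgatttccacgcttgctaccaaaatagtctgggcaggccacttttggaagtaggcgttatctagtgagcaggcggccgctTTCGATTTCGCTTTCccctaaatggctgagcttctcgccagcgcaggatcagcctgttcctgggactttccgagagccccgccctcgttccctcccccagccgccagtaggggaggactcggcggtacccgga
TAP2: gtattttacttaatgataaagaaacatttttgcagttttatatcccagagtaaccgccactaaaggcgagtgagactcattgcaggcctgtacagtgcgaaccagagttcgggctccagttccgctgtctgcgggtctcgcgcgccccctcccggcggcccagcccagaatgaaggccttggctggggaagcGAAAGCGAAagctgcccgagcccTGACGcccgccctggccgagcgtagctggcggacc
B2M held overlapping ISRE-like matches from -144 to -136 and from -138 to -130, and TAP1 from -133 to -125 and from -127 to -119. TAP2 held the letters from -58 to -50. The TAP1 window is the first of its listed start sites. The window of TAP1 start site 2 held no ISRE-like letters and a GAS-like match from -189 to -181. The window of PSMB8 start site 2 held a GAS-like match from -65 to -57. GAS-like letters were found in 6.57% of windows.

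PSMB8, the immunoproteasome subunit, was near background on every array. It was at 4.22, 3.91 and 4.06 in TC-71, 4.29 and 4.17 in TC/AEW, 4.37 and 4.17 in TC/AVE, and 4.23 and 4.11 in TC/CP. The groups overlapped, and the gene did not pass the level filter (5 on at least 2 arrays) and was not tested. So 8 of 9 members were tested.

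For the resistant lines in common, 9 of 9 members were higher than TC-71, against 48.9% of genes, with a median difference of 0.50. In 2 of 9, HLA-C and B2M, all resistant arrays lay above all TC-71 arrays, against 5.20% of genes. At an unadjusted p under 0.05, 3 members were higher, TAP1, B2M and HLA-C, against 5.14% of genes. None passed the adjusted p, which 0.0212% of genes did. TAP1 was 0.75 ± 0.27 higher, HLA-C 0.89 ± 0.36 and HLA-B 0.82 ± 0.36, with adjusted p of 0.522, 0.581 and 0.616. HLA-E, HLA-F, HLA-G and TAP2 were 0.43, 0.53, 0.50 and 0.46 higher. Without TC/CP the members' median difference was 0.79, and HLA-B, HLA-C and TAP1 were 1.20, 1.28 and 1.05 higher, with adjusted p of 0.370, 0.357 and 0.317. HLA-E, HLA-F and HLA-G were then 0.74, 0.80 and 0.79 higher. Without TC/AEW the members' median was 0.41, and HLA-B, HLA-C, HLA-E, HLA-F and HLA-G were 0.48, 0.49, 0.24, 0.33 and 0.30 higher, with adjusted p from 0.879 to 0.963. Without TC/AVE, TAP2 was 0.28 higher. With the array set as a block, HLA-B was 0.52 and HLA-E 0.22 higher.

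In TC/AEW, 6 of the 8 tested members had an unadjusted p under 0.05, against 2.24% of genes higher at that p, and 2 were at least 2-fold higher, against 1.76%. In TC/AVE, 7 members had such a p, against 3.36%, and 1 was at least 2-fold higher, against 1.96%. In TC/CP, 0 members did, against 3.49%, and 6 of 9 members lay above the TC-71 mean, against 49.6% of genes. No gene at all passed the adjusted p in these 3 comparisons (0%). With 1 sample per line, the spread came from TC-71 and the line was assumed to vary like it.

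**Figure D2:**
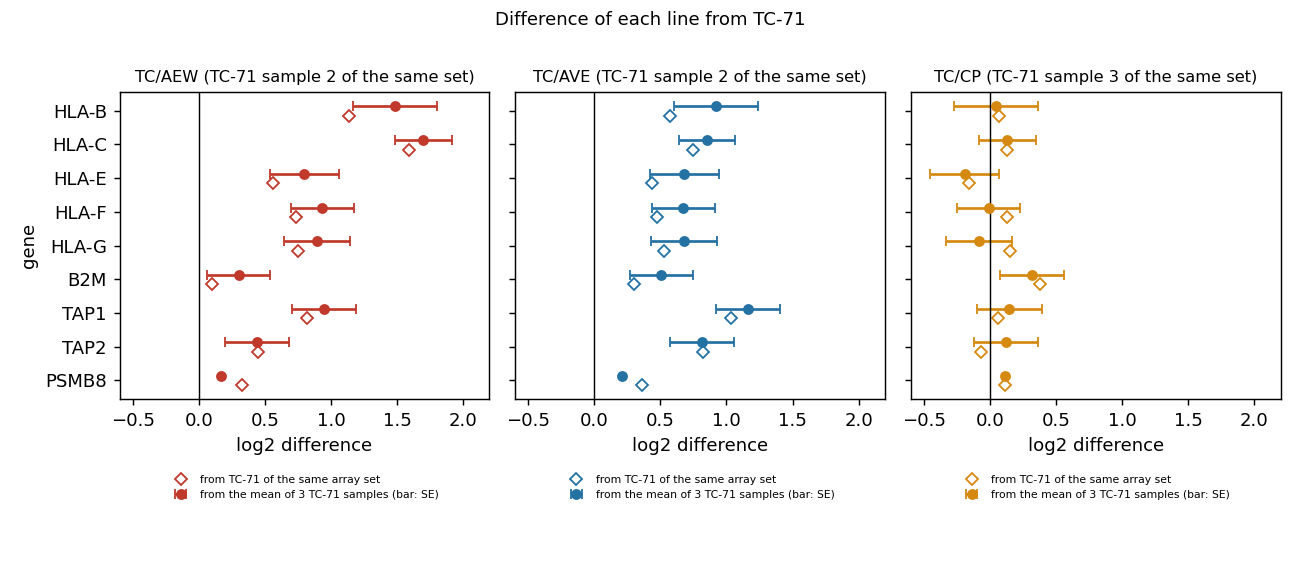
Log2 difference from TC-71 for each gene, 1 panel per resistant line. Filled points are from the mean of 3 TC-71 samples, with the SE of the limma fit as bars (none for PSMB8, not tested), and open diamonds are from the TC-71 sample of the same array set. The points of TC/AEW and TC/AVE lie right of 0 for all 9 genes, and those of TC/CP lie near 0 for the HLA genes.

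TC-71 sample 2 was the highest TC-71 sample for all 5 HLA genes, B2M and TAP1, and it shares its array set with TC/AEW and TC/AVE. Set against that sample alone, TC/AEW was higher for 9 of 9 members, with a median of 0.74, and HLA-C and HLA-B were 1.59 and 1.13 higher. TC/AVE was also higher for 9 of 9, with a median of 0.53, and TAP1 was 1.03 higher. TC/CP set against TC-71 sample 3 had a median of 0.11, with 7 of 9 members higher and B2M the largest at 0.38. TC-71 sample 2 itself was a median of 0.27 above TC-71 sample 3. These values rest on 1 sample a side and have no test.

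The lines were also set against each other. TC/AEW lay above TC/CP on both arrays for 7 of 9 members, against 30.2% of genes, and B2M lay below, as did 33.5% of genes. HLA-C was 1.57 ± 0.26 higher and HLA-B 1.44 ± 0.39 higher, and 6 members had an unadjusted p under 0.05, against 1.14%. TC/AVE lay above TC/CP for 8 of 9, against 33.8%, with TAP1 1.01 ± 0.30 higher, and 3 members had such a p, against 1.97%. No gene passed the adjusted p in any comparison between lines (0%). TC/CP was in another array set than TC/AEW and TC/AVE, so line and array set cannot be told apart in comparisons with TC/CP.

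By main probe set, TC/AEW lay above TC/AVE for 5 of 9 members, the heavy chain genes, against 29.6% of genes. It lay below TC/AVE for 2 of 9, B2M and TAP2, which is no more than the 29.3% of genes that did. Other probe sets of HLA-E and TAP2 did not keep this order, as given below. The heavy chain differences were 0.56 for HLA-B, 0.85 ± 0.26 for HLA-C, 0.12 for HLA-E, 0.26 for HLA-F and 0.22 for HLA-G. For B2M, TAP1 and TAP2 the difference was -0.21, -0.22 and -0.37. HLA-C alone had an unadjusted p under 0.05, at 0.0236, where 1.96% of genes were higher at that p, and its adjusted p was 1.

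Most heavy chain values come from _x_at probe sets, whose probes also match other sequences, so HLA genes may read each other's RNA. Of the 26 probe sets of the members, 15 were _x_at, 5 were _s_at, whose probes are shared among related transcripts, and 6 had neither suffix. All 15 _x_at sets lay above TC-71 on both arrays of TC/AEW, by 0.56 to 2.03, and of TC/AVE, by 0.41 to 0.92. In TC/CP they differed by -0.27 to 0.16, and 2 lay above and 3 below TC-71. Over all 26 sets, 21 lay above in TC/AEW and 22 in TC/AVE, against 12.2% and 15.5% of all single-symbol probe sets. In TC/CP 4 lay above and 4 below, against 14.8% and 15.7%. Of the 26952 kept probe sets, 0 passed the adjusted p in limma.

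HLA-B probe sets differed in size: 211911_x_at, 209140_x_at and 208729_x_at were 1.48, 2.03 and 1.28 higher in TC/AEW, but 0.92, 0.88 and 0.88 higher in TC/AVE. The 4 HLA-C sets were 0.84 to 1.70 higher in TC/AEW and 0.72 to 0.85 higher in TC/AVE. The HLA probe set with no suffix that passed the level filter was 200904_at of HLA-E, at 8.05, 7.93 and 7.84 in TC-71, 8.08 and 8.40 in TC/AEW, 8.70 and 8.68 in TC/AVE, and 7.71 and 7.73 in TC/CP. It put TC/AVE highest, 0.75 ± 0.22 above TC-71, with TC/AEW at a difference of 0.30 and TC/CP of -0.22. For HLA-E, then, the order of TC/AEW and TC/AVE turned with the probe set.

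The other no-suffix sets were dim or near background. HLA-F 221978_at ran from 4.27 to 5.05 over the 9 arrays, and B2M 232311_at stayed under 5. TAP2 225973_at was at 3.88, 4.08 and 4.22 in TC-71, 5.77 and 5.97 in TC/AEW, 5.92 and 5.90 in TC/AVE, and 4.19 and 4.49 in TC/CP. Since TC-71 was near background on it, the size of its differences, 1.81 in TC/AEW and 1.85 in TC/AVE, is uncertain. TAP2 204770_at was 0.46 higher in both lines, with its arrays overlapping TC-71 in TC/AEW and above it in TC/AVE. Between TC/AEW and TC/AVE, 225973_at and 204770_at differed by -0.04 and 0.005, with overlapping arrays, unlike the main TAP2 set. TAP2 208428_at, under 5 throughout, differed by 0.28 and -0.07 and overlapped TC-71 in both. The second B2M set, 201891_s_at, was at 12.82, 12.92 and 12.88 in TC-71, 13.07 and 12.95 in TC/AEW, 13.30 and 13.22 in TC/AVE, and 13.28 and 13.25 in TC/CP.

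**Figure D3:**
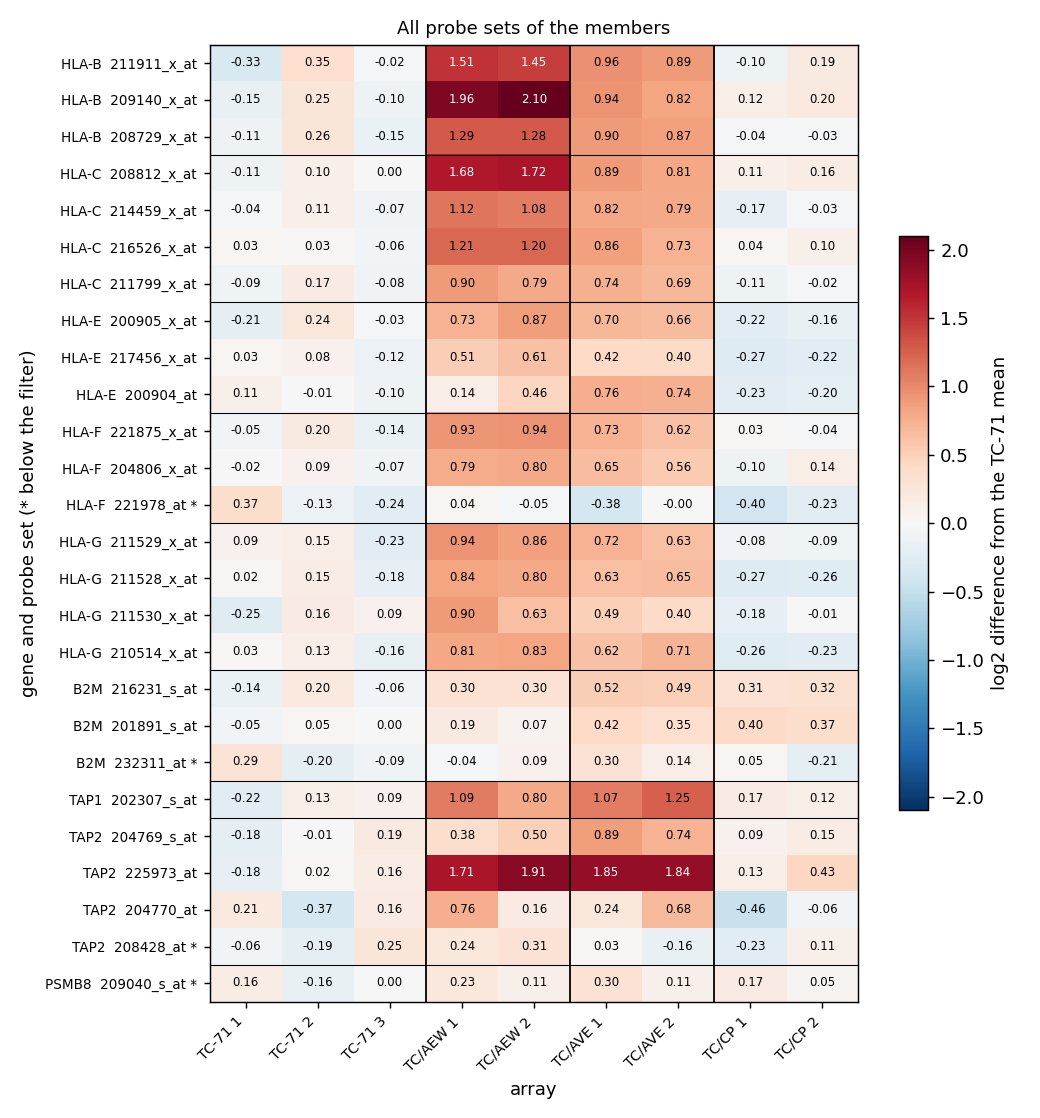
Log2 difference of each array (columns) from the TC-71 mean for each of the 26 probe sets (rows), with the value in each cell and colour from lower (blue) to higher (red); * marks sets below the level filter. The _x_at rows are red on the TC/AEW and TC/AVE arrays, and the strongest, HLA-B 209140_x_at in TC/AEW, averages 2.03.

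The heavy chain genes had similar profiles over the 6 samples. Pearson's r over the 10 pairs of HLA genes ran from 0.90 to 0.98 with a median of 0.96, and over all 28 pairs of tested members from 0.60 to 0.98. The lowest was that of HLA-C with B2M. These values describe 6 samples that share the TC-71 background, and the HLA probe sets share sequence. Among 1251 genes with an SD of at least 0.5 over the samples, the profiles most like the members' mean were those of IFITM1, KCNMB4, RETREG1, ABCA5, TTC39C and LGALS3BP, with r of 0.98, 0.98, 0.97, 0.96, 0.96 and 0.96. IFITM1 was at 9.09, 9.57 and 9.43 in TC-71, while TC/AEW, TC/AVE and TC/CP read 10.38, 10.29 and 9.23.

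Genes around the members were given from lists of the pathway, and none of their genes passed the adjusted p in a comparison. Over all genes tested, 48.9% lay above TC-71 in the lines in common. The counts of list genes above and below also take in genes under the level filter, which were not tested. Of 9 further proteasome genes on the array, 5 lay above and 4 below TC-71 in the lines in common (median 0.03). POMP, a proteasome assembly factor, differed by -0.38, and the activators PSME4 and PSME3 by -0.18 and -0.16. PSME1, a proteasome activator chosen after its values were seen, was at 9.41 ± 0.11 in TC-71, 9.76 in TC/AEW, 9.99 in TC/AVE and 8.77 in TC/CP. PSMB9, another immunoproteasome subunit chosen the same way, was near background like PSMB8.

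Of 14 trimming and loading partners, 4 lay above and 10 below TC-71 (median -0.05). HSPA5, a chaperone of the endoplasmic reticulum, was 0.65 ± 0.25 higher, PDIA3, a partner of the loading complex, 0.30 higher, and CALR, calreticulin, differed by -0.38. TAPBP, tapasin, which bridges the heavy chain to TAP, was named after its values were seen and was at 8.43 in TC-71, 8.56 in TC/AEW, 9.15 in TC/AVE and 8.37 in TC/CP. Of 14 transcription regulators of class I genes, 6 lay above and 8 below. RFXAP and NFYA, subunits of factors that bind class I and class II promoters, differed by -0.35 and -0.29. IRF2, an interferon regulatory factor, was near background at 3.66 ± 0.56 in TC-71, where it ran from 3.20 to 4.29. It stood at 5.30 in TC/AEW, 5.63 in TC/AVE and 4.10 in TC/CP. The size of its differences, 1.63 ± 0.46 in TC/AEW and 1.96 ± 0.46 in TC/AVE (SE), is thus uncertain.

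Of 12 other class I and class I-like genes on the array, 10 lay above and 2 below TC-71 in the lines in common (median 0.20). Over all genes tested, 48.9% lay above. At an unadjusted p under 0.05 in limma, 4 of the 10 tested were higher, against 5.14% of genes. MICB, a stress-induced ligand of natural killer cells, was 1.47 ± 0.25 higher, from 8.02 ± 0.49 to 9.30, 9.67 and 9.50, with an adjusted p of 0.203. Its level in TC/CP lay between those of the other lines. FCGRT, the neonatal Fc receptor heavy chain, which pairs with B2M, differed by -1.26, at 11.31 ± 0.40 in TC-71 and 10.50, 10.06 and 9.60 in the lines, with an adjusted p of 0.311. PROCR, the endothelial protein C receptor, was 1.92 ± 0.54 higher, with an adjusted p of 0.407 in limma. Its TC-71 samples were widely spread, from 4.73 to 7.01 (mean 5.95 ± 1.15, SD), and the lines stood at 7.71, 7.54 and 8.36.

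Of 22 interferon-induced genes outside presentation, 14 lay above and 8 below TC-71 in the lines in common (median 0.09). Over all genes tested, 48.9% lay above. Of the 22, 13 passed the level filter and were tested, and of these only IFI44 lay below, at -0.04. At an unadjusted p under 0.05 in limma, 6 of the 13 were higher, against 5.14% of genes. IFIT2, an interferon-induced antiviral gene, was at 5.66 in TC-71, 8.15 in TC/AEW, 6.18 in TC/AVE and 9.84 in TC/CP. IFIT1 and IFIT3 had the same order, at 8.66, 7.31 and 9.30, and 7.84, 6.05 and 9.07. Other genes of the list were ordered otherwise: its median difference was 0.35 in TC/AEW, 0.09 in TC/AVE and 0.01 in TC/CP, and IFITM1 differed by 1.02, 0.93 and -0.14. IFIH1, a sensor of viral RNA chosen after its values were seen, was near background in TC-71 and at 6.39, 6.06 and 5.14 in the lines. Of 14 genes of interferon signalling, 7 lay above and 7 below, with IRF7, JAK2 and IFNAR1 0.33, 0.32 and 0.22 higher. Of 12 class II genes, 4 lay above and 8 below, with HLA-DMB 0.19 higher and HLA-DPA1 and HLA-DQB1 at differences of -0.18 and -0.15. In limma, 0 genes of either list had an unadjusted p under 0.05.

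**Figure D4:**
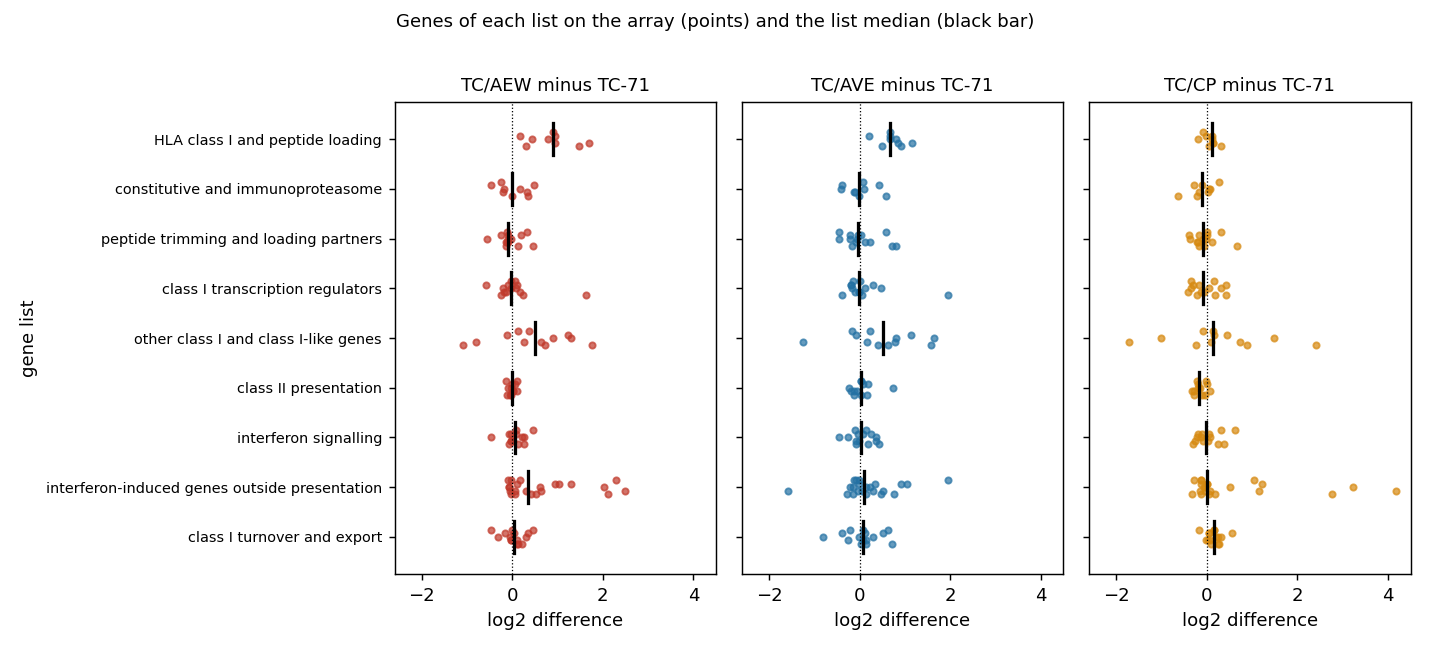
Log2 difference from TC-71 for the members and for each pathway list, 1 panel per resistant line, with a point per gene on the array and a black bar at the median. The median of the members is 0.90 in TC/AEW, 0.68 in TC/AVE and 0.11 in TC/CP, and that of the other class I and class I-like genes is 0.51, 0.52 and 0.15.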

How the data were processed

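The 9 genes and the gene lists were chosen with earlier results of these data known. RNA from TC-71 (3 samples) and 3 resistant lines (2 technical arrays each) was hybridised to Affymetrix HG-U133 Plus 2 arrays. The deposited values are log2 levels per probe set. The submitters' processing notes name RMA and affy as the authors' tools, and their versions are not given in the sources used here, nor is the step at which technical replicates were split. The p-values thus reflect the spread among these few samples, and the number of arrays limits the precision.

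The 62 control probe sets were left out. Probe sets with a single symbol were kept if 2 or more of the 9 arrays reached 5, leaving 26952. Symbols came from the platform annotation, checked by gene identifier against RefSeq GRCh38.p14. Each of 14181 genes was represented by the kept probe set of highest mean. Arrays of a line were averaged, giving 6 samples. Differences were tested, two-sided, with limma 3.58.1 in R 4.3.3 (lines in common with 2 groups, single lines and pairs of lines with 4 groups), and the Benjamini-Hochberg adjustment ran over all genes, at 0.05. The fits were tested on simulated data.

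All 9 members are named. Of each list, up to 3 genes with the largest difference in the lines in common are named, and the 6 genes most like the members' mean profile. Other names are marked as chosen after their values were seen. Alternatives covered the level filter, the probe set rule, array centring, a trended prior, arrays as samples, the array set as a block, and leaving out each sample or array. Promoter windows came from RefSeq, which held 8 of 9 members, HLA-E being the other.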

Additional observations from a re-analysis of the deposited data

Results flagged for a closer look

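Some readings went in opposite directions in the lines: both arrays of TC/AEW and both of TC/AVE lay above all TC-71 arrays, and both arrays of TC/CP lay below them. Of the members' probe sets and the named list genes examined, this held for 2 HLA-E probe sets, 2 HLA-G probe sets, the class I pseudogene HLA-J and the proteasome activator gene PSME1. In TC/CP, 4 of the members' 26 probe sets lay below TC-71, which is near the 15.7% of all single-symbol probe sets that did. The share of all probe sets with the whole pattern was not counted. The main probe sets of HLA-E and HLA-G overlapped TC-71 in TC/CP. The differences between lines were tested in limma and none passed the adjusted p. Line and array set cannot be told apart in these comparisons with TC/CP. For HLA-E 217456_x_at, TC/AEW was 0.81 and TC/AVE 0.66 above TC/CP on the log2 scale (adjusted p of 1 and 0.978), and for HLA-E 200904_at 0.52 and 0.97 (1 and 0.845). For HLA-G 211528_x_at, the differences were 1.09 and 0.91 (1 and 0.908), and for HLA-G 210514_x_at 1.07 and 0.91 (1 and 0.891). HLA-J was 0.96 and 0.88 higher (1 and 0.800), and PSME1 was 0.98 and 1.22 higher (1 and 0.518). The HLA-J probe set is an _x_at set, so it may read RNA of other HLA genes.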

How the results depend on the processing

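No paired analysis was possible because the replicate numbers of the resistant lines name technical arrays that were averaged into 1 sample. The array set, which pairs no samples by replicate number, was used as a block instead. No member passed the adjusted p under any alternative except when a fit counted all 9 arrays, technical ones included, as samples. There 0 members passed in the lines in common, 6 in TC/AEW, 8 in TC/AVE and 0 in TC/CP, and 1, 6 and 7 in TC/AEW against TC/AVE, TC/AEW against TC/CP and TC/AVE against TC/CP. In the same fit the genes called were 238, 547, 1868, 1015, 570, 682 and 1906, in that order. In the lines in common 3 genes were called, and 0 with no filter or with the array set as a block, 6 with a filter at 6 or a trended prior, 5 without _x_at and _s_at sets or with centred arrays, and 8 with the median of probe sets. Leaving out 1 sample, line or array gave 0 to 5, with 0 without any TC-71 sample or any line. The median of probe sets called 5 genes in TC/AVE, and the trended prior 1 in TC/CP and 1 in TC/AVE against TC/CP. The members' median difference in the lines in common ran from 0.41 to 0.79 with 1 sample, line or array left out, highest without TC/CP. With an _x_at set used only where a gene had no other, it was -0.038 in TC/AEW against TC/AVE (0.12 otherwise) and 0.80 in TC/AEW against TC/CP (0.94 otherwise). With neither _x_at nor _s_at sets, over 4 members only, it was 0.17 in the lines in common, 0.16 in TC/AEW, 0.49 in TC/AVE and -0.15 in TC/CP. It was then -0.12 and 0.42 in TC/AEW against TC/AVE and TC/CP. The 4 were HLA-E, TAP2, HLA-F and B2M, and the HLA-F and B2M sets were under the level filter. In TC/AEW these sets differed from TC-71 by 0.30, 1.81, -0.005 and 0.02. Within the array set the members' median difference was 0.74 in TC/AEW and 0.53 in TC/AVE. The cause of these shifts was not tested.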

Other observations

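Of 15 genes of class I turnover and export, 10 were higher and 5 lower in the lines in common, with a median difference of 0.07. At an unadjusted p under 0.05 in limma, 1 of the 14 tested was higher. Over all genes tested, 48.9% lay above TC-71 and 5.14% were higher at that p. SAR1B, a GTPase of vesicles that leave the endoplasmic reticulum, was 0.48 higher, SEC23A, a coat protein of those vesicles, 0.41 higher, and MARCHF8, a ubiquitin ligase of membrane proteins, 0.37 higher.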
